A study of Mus musculus with 6 samples.

Results

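The genes described here are 32 genes of glycolysis and of the hypoxia response, listed by name: 15 glycolytic enzymes, 6 genes of glucose and lactate transport and of the control of glucose carbon, 10 targets of the hypoxia-inducible factor (HIF) outside glycolysis, and Hif1a itself. Of these, 28 could be matched to a probe set that named them alone, out of 22180 genes measured in the same way. Aldoa, Eno1, Gpi1 and Ankrd37 are not analysed here. The measured members were 12 enzymes, 6 transport and control genes, 9 HIF targets and Hif1a. Levels were read on 6 arrays of macrophages grown from C57Bl/6 mouse bone marrow, which had first spent 5 days in M-CSF, the macrophage growth factor, at 20 ng/ml. For the next 6 days the cells of 2 arrays were kept in M-CSF at 50 ng/ml, those of 2 in FSL-1 at 20 ng/ml, and those of 2 in FSL-1 at 20 ng/ml with nutlin-3a at 10 µM. FSL-1 is a lipopeptide recognised by Toll-like receptor heterodimers, and its cultures are those the design names multinucleated giant cells. Nutlin-3a frees p53 from its inhibitor Mdm2. Whether the FSL-1 cultures kept receiving M-CSF is not stated.

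Glycolysis breaks glucose down to pyruvate in the cytosol, and Ldha turns pyruvate into lactate, which monocarboxylate transporters carry out of the cell. HIF is a transcription factor of an alpha and a beta subunit. In oxygen, prolyl hydroxylases of the Egln family mark the alpha subunit for destruction through the von Hippel-Lindau protein, so that the factor is controlled largely as a protein. When the alpha subunit persists, HIF raises many glycolytic enzymes and transporters and also genes with other roles, such as blood vessel growth, oxidative protein folding and mitophagy. Macrophages are known to raise glycolysis and Hif1a after stimulation of Toll-like receptors. The arrays measured RNA only.

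HIF binds DNA at a core of 5 bases, ACGTG or GCGTG, read on either strand. Promoter windows of 300 bases (250 before to 50 after each transcription start) were searched for these letters in the RefSeq promoter table of build GRCm38.p6. The E-box CACGTG, which Myc and related factors bind, contains the core and overlaps it. Of the 28 measured members, 27 had at least 1 window, and Ndrg1 had none. A core was found in 31 of their 37 windows (83.8%), and in 43.8% of all 32851 windows. Many members are listed as known HIF targets, so a share above that of all windows is not independent of the choice of genes. The ACGTG form was in 21 member windows (56.8%), against 19.6% of all windows, and the E-box was in 16.2% against 7.2%. The member windows were also richer in G and C, with a median of 64.7% against 52.7%, so the shares do not compare windows of like base composition. By role, a core was in 12 of the 16 windows of the enzymes, 7 of the 8 of the transport and control genes and 11 of the 12 of the HIF targets. Among genes called higher with FSL-1, 16 of 17 windows held a core, and 8 of 9 did among those called lower with nutlin-3a, which share genes with the first. Of members called neither way, 14 of 18 windows did. These sets differed in base composition too, with median G and C of 66.0%, 65.0% and 57.0% in that order. Windows of 1 gene were counted separately: the 12 of the HIF targets belong to 8 genes, and the 17 to 12 genes. Both sets hold Ak4 windows that start at chr4:101419039, 101419062 and 101419071 and overlap. Letters shared by these were counted more than once. A match of letters describes the window and is not a measured binding site.

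The 250 bases before the start are shown for the 5 genes whose differences in the first or the second comparison below passed under every alternative tried and that had a window. They are written 5′ to 3′ along the gene, with the core letters of either strand in capitals, including the whole E-box where one overlaps. Ero1a, at chr14:45318573-45318822 on the minus strand, has 3 cores. Slc2a1, at chr4:119108495-119108744 on the plus strand, has 2, and Slc16a3, at chr11:120948817-120949066 on the plus strand, has 2, which begin at -27 and -14 relative to the start.
Ero1a: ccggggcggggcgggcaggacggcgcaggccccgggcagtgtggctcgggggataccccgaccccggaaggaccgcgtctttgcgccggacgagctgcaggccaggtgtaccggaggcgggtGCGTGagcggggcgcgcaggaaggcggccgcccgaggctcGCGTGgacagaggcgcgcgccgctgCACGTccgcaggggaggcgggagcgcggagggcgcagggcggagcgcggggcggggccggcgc
Slc2a1: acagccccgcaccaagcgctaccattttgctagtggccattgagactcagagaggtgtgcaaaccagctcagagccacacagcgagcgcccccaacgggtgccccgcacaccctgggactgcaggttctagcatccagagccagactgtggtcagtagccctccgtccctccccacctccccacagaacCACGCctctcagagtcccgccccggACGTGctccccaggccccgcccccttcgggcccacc
Slc16a3: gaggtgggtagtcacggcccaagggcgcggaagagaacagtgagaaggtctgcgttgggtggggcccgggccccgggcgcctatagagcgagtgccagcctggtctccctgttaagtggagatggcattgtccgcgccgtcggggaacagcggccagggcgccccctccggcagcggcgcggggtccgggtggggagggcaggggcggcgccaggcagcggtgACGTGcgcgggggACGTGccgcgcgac
Pfkfb3 has 2 listed starts, both on the minus strand, with upstream bases at chr2:11553930-11554179 and chr2:11502091-11502340. The first holds 1 core and the second an E-box and a separate GCGTG. Pfkp, at chr13:6648772-6649021 on the minus strand, has 3 separate GCGTG cores.
Pfkfb3 first start: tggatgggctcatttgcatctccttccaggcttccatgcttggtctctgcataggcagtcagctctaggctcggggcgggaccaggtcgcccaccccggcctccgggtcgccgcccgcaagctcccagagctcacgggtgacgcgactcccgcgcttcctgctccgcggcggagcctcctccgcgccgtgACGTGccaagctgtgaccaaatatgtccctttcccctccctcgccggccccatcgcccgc
Pfkfb3 second start: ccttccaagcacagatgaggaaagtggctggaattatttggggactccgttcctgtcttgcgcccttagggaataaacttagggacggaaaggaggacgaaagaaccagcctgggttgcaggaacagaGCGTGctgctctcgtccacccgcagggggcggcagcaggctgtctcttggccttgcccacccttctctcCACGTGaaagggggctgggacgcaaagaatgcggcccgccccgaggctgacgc
Pfkp: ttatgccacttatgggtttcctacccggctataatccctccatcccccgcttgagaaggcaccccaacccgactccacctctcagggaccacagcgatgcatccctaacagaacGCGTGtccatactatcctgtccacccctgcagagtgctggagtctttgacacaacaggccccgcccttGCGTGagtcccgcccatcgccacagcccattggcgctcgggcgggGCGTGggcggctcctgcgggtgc

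**Figure D1:**
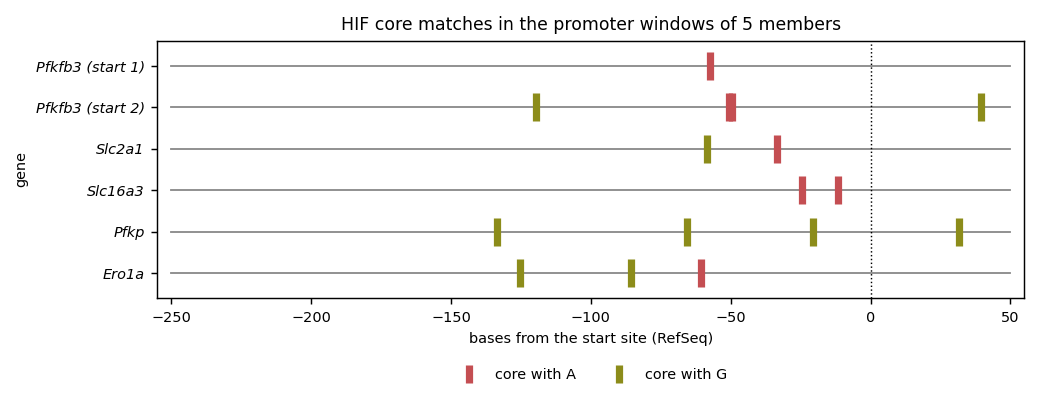
Positions of the core letters, with A or G first and on either strand, in the 300-base windows of the 5 genes whose upstream bases are printed, as distance from the transcription start in bases (horizontal) for each window (vertical, 6 windows). The cores of Slc16a3 begin at -27 and -14, and the windows of Pfkp and of the second Pfkfb3 start hold 1 further core past the start.

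The 7 macrophage markers averaged 11.41 to 11.56 (log2) in M-CSF, 11.46 to 11.57 with FSL-1 and 11.34 to 11.39 with nutlin-3a added, and the median level of all genes was 5.51. Within this list Adgre1 (0.56) and Itgam (0.74) were called higher and Csf1r, the M-CSF receptor, lower (-0.87) with FSL-1, and Fcgr1 was called lower with nutlin-3a added (-1.58). Markers of other cell types stayed below that median on average in every group. Some single markers did not, such as the stromal Col1a1, at 6.46 to 7.43 over the arrays. The 8 neutrophil markers averaged 4.56 on both M-CSF arrays, 4.92 to 5.01 with FSL-1 and 4.89 to 4.95 with nutlin-3a added. Of these 8, 2 were called higher with FSL-1 and 0 lower, where 3.91% and 2.95% of all genes were. The 8 fibroblast and stromal markers averaged 4.97 to 5.02, 5.17 to 5.22 and 4.97 to 5.02 in the same order, and the 5 dendritic cell markers 4.80 to 4.81, 4.91 to 5.04 and 4.75 to 4.82. The 5 lymphocyte markers averaged 4.45 to 4.68 over the arrays, with groups that overlapped, and the 3 erythroid and mast cell markers 3.10 to 3.33. The stromal and dendritic averages were thus highest with FSL-1, as many genes below were, and the neutrophil average was higher in both FSL-1 groups than in M-CSF. Single genes weighed on these averages. S100a8 read 4.49 and 3.90 in M-CSF and 6.50 and 6.69 in FSL-1, and Ccr7 5.30 and 5.19 against 5.81 and 5.97. The stromal Dcn read 4.03 and 4.10 against 4.35 and 5.17. The median differences with FSL-1 were 0.12 (neutrophil), 0.18 (stromal) and -0.01 (dendritic). Differences were below 0 for 2 of 8, 2 of 8 and 3 of 5 markers in that order. No marker was listed at 0, and the part of these lists in the results was not tested. Mdm2, a p53 target that nutlin-3a raises through p53, read 9.98 and 9.76 in M-CSF, 10.76 and 10.75 in FSL-1 and 11.52 and 11.53 with nutlin-3a added. It was higher with FSL-1 by 0.88 (limma adjusted p = 0.00566, and up to 0.0543 without either FSL-1 array) and higher again with nutlin-3a by 0.77 (limma adjusted p = 0.0113). In the 4 fits that omit an array of the second comparison, its adjusted p was 0.0591 to 0.0901.

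With FSL-1, the RNA of the glucose transporter Slc2a1, the lactate transporter Slc16a3, the regulator Pfkfb3 and 5 glycolytic enzymes stood above that in M-CSF, together with Hif1a and 3 HIF targets outside glycolysis. Of 28 members, 12 passed as higher, where 3.91% of all genes did, and 1 passed as lower, where 2.95% did (limma, Benjamini-Hochberg adjusted p under 0.05 over all 22180 genes). The 13 calls in either direction stand beside 6.86% of all genes. The median log2 difference of the members was 0.42 and that of all genes -0.01. The arrays of the groups did not overlap for 21 members that lay above M-CSF, against 24.6% of all genes, and for 2 that lay below, against 25.6%. By role, 5 of 12 enzymes passed as higher and 1 as lower (median 0.38). Those passing as higher were 3 of 6 transport and control genes (median 0.85) and 3 of 9 HIF targets (median 0.31). The 5 enzymes include Pgam1, whose other probe set gave 0.18 without passing. The RNA came from sorted cells, with a gate not given in the sources used here, and in such pooled RNA a larger share of cells of 1 type and more RNA per cell cannot be told apart.

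**Figure D2:**
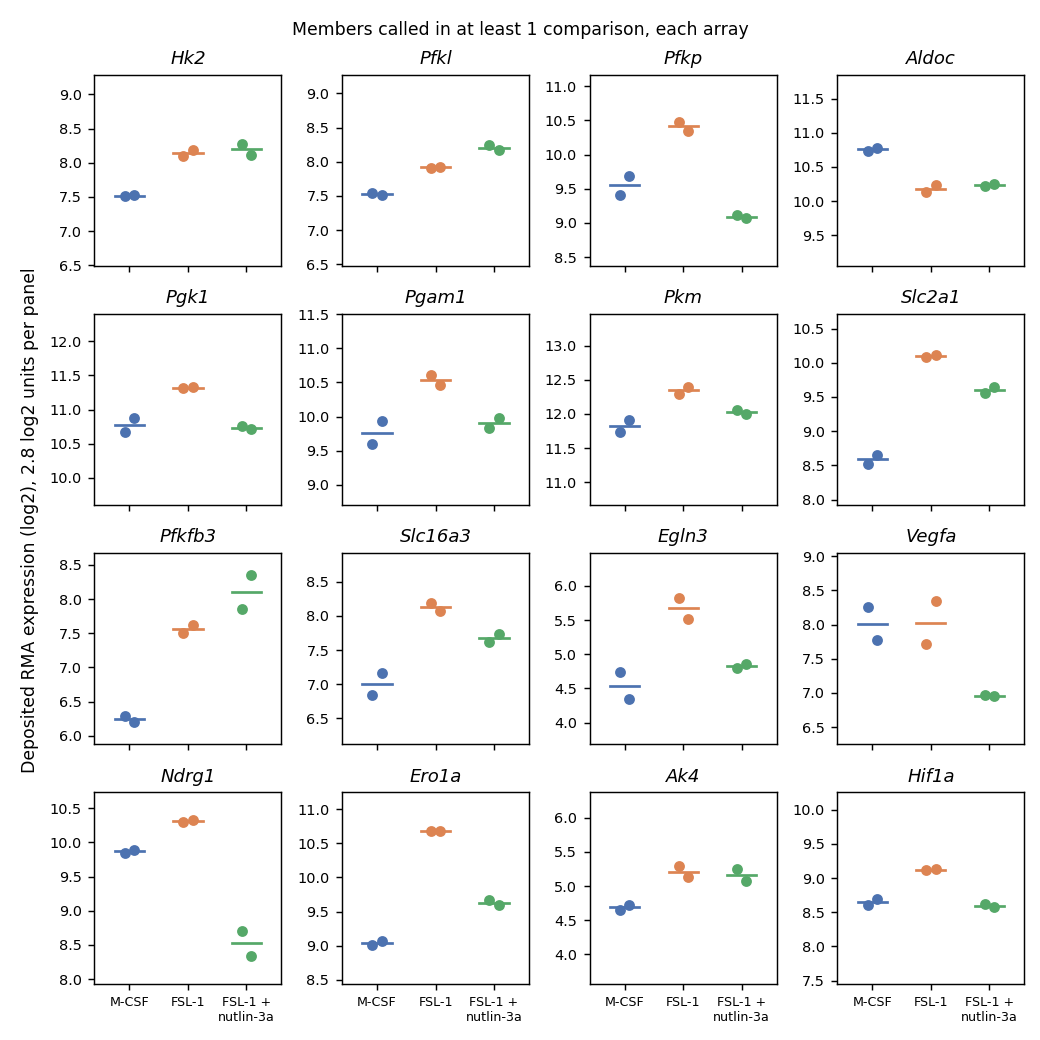
Deposited log2 expression (vertical) of the members called in at least 1 comparison, by group (horizontal), with each point 1 array and a line at each group mean. Ero1a sits at 9.004 and 9.071 in M-CSF, 10.68 and 10.69 in FSL-1, and 9.67 and 9.59 in FSL-1 + nutlin-3a.

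Among the transport and control genes, Slc2a1, the glucose transporter GLUT1 (probe set 17417844), read 8.53 and 8.66 on the M-CSF arrays, 10.09 and 10.11 with FSL-1, and 9.55 and 9.64 with FSL-1 and nutlin-3a. The 3 groups did not overlap, with M-CSF lowest and FSL-1 highest. Its RNA rose 2.84-fold with FSL-1 (log2 difference 1.51, SE 0.12, limma adjusted p = 0.000324). A dimmer probe set of Slc2a1 gave 0.17. Pfkfb3 makes a fructose bisphosphate that strongly activates phosphofructokinase. It read 6.29 and 6.20 in M-CSF, 7.51 and 7.63 in FSL-1, and 7.86 and 8.35 with nutlin-3a added. Both treated groups lay wholly above M-CSF, and the rise with FSL-1 was 2.5-fold (1.32, SE 0.17, limma adjusted p = 0.00404). Slc16a3, the transporter MCT4 that exports lactate, read 6.85 and 7.17 in M-CSF, 8.19 and 8.07 in FSL-1, and 7.61 and 7.73 with nutlin-3a added. The groups again kept apart, and the rise with FSL-1 was 2.18-fold (1.13, SE 0.14, limma adjusted p = 0.0037). These 3 calls held whichever array was left out.

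The other 3 genes of this role did not pass. Slc16a1, the more widely expressed transporter MCT1, read 6.62 and 6.94 in M-CSF against 7.30 and 7.39 in FSL-1, a difference of 0.57 with an SE of 0.18 (limma adjusted p = 0.109). Pfkfb4, a relative of Pfkfb3, lay slightly below M-CSF (-0.22, limma adjusted p = 0.316). Pdk1, the kinase that holds pyruvate back from the mitochondrion, differed by -0.03 (limma adjusted p = 0.929).

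The enzymes are taken in the order of the pathway. Of the 3 hexokinases, which trap glucose as its phosphate, Hk2 was the only one to pass. Hk2, the inducible form, read 7.51 and 7.52 in M-CSF, 8.10 and 8.19 in FSL-1, and 8.27 and 8.12 with nutlin-3a added. Its M-CSF arrays lay below all others, and the rise was 1.55-fold (0.63, limma adjusted p = 0.0194). Hk1, the form found in most tissues, lay between 7.40 and 7.50 on all 6 arrays (-0.02, limma adjusted p = 0.941). Hk3, a form of blood cells, read 9.63 and 9.92 in M-CSF and 10.13 and 10.10 in FSL-1 (0.34, limma adjusted p = 0.186).

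Phosphofructokinase commits the sugar to glycolysis, and its platelet and liver forms were measured. Pfkp, the platelet form (probe set 17290324), read 9.41 and 9.69 in M-CSF, 10.48 and 10.35 in FSL-1, and 9.11 and 9.07 with nutlin-3a added. FSL-1 stood highest and FSL-1 with nutlin-3a lowest, with no overlap, and the rise with FSL-1 was 1.82-fold (0.86, SE 0.13, limma adjusted p = 0.0094). Pfkl, the liver form, read 7.55 and 7.51, then 7.91 and 7.93, then 8.24 and 8.17 in the same order of groups. Its step from M-CSF to FSL-1 of 0.39 did not pass (limma adjusted p = 0.0831). Aldoc, an aldolase better known from brain, was the 1 member called lower. It read 10.73 and 10.78 in M-CSF, 10.13 and 10.24 in FSL-1, and 10.23 and 10.25 with nutlin-3a added, and was 1.49-fold lower with FSL-1 (-0.57, limma adjusted p = 0.024).

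In the stretch from triose phosphates to lactate, 3 of 6 enzymes passed. Pgk1, which makes the first ATP of the pathway, read 10.68 and 10.87 in M-CSF, 11.32 on both FSL-1 arrays, and 10.76 and 10.71 with nutlin-3a added. FSL-1 lay above the other groups, which overlapped, and the difference from M-CSF was 0.55 (limma adjusted p = 0.0344). Pgam1, a phosphoglycerate mutase, read 9.60 and 9.93, then 10.61 and 10.46, then 9.83 and 9.98, and rose with FSL-1 by 0.77 (limma adjusted p = 0.0213). Its other probe set gave 0.18 for the same comparison. Pkm, the pyruvate kinase, read 11.73 and 11.91 in M-CSF, 12.30 and 12.39 in FSL-1, and 12.06 and 12.00 with nutlin-3a added. The groups kept apart, and its rise with FSL-1 was 0.52 (limma adjusted p = 0.042). Ldha did not pass, at 6.81 and 6.93 in M-CSF and 7.18 and 7.21 in FSL-1 (0.33, limma adjusted p = 0.183). Tpi1, the triose phosphate isomerase, differed by 0.18, and Eno2, the neuronal enolase, by 0.38 (limma adjusted p = 0.513 and 0.121).

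Of the HIF targets outside glycolysis, Ero1a gave the largest difference of all 28 members with FSL-1. Ero1a encodes the oxidase that renews disulfide-forming capacity in the endoplasmic reticulum, and its probe set 17305636 read 9.004 and 9.071 in M-CSF, 10.68 and 10.69 in FSL-1, and 9.67 and 9.59 with nutlin-3a added. The replicates lay close together and the 3 groups kept apart. Its RNA rose 3.12-fold with FSL-1 (1.64, SE 0.11, limma adjusted p = 0.000172), and a second probe set gave 1.20. Egln3, the prolyl hydroxylase PHD3 and itself a HIF target, read 4.74 and 4.34 in M-CSF, 5.82 and 5.52 in FSL-1, and 4.80 and 4.85 with nutlin-3a added. Only the FSL-1 arrays lay above the median level of all genes, and the rise was 2.19-fold (1.13, SE 0.17, limma adjusted p = 0.00735). Ak4, a mitochondrial adenylate kinase, read 4.65 and 4.73 in M-CSF, 5.29 and 5.13 in FSL-1, and 5.25 and 5.07 with nutlin-3a added. All 6 values lay under the all-gene median, and the rise of 0.52 was close to the threshold (limma adjusted p = 0.0494).

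Hif1a (probe set 17276328) read 8.60 and 8.70 in M-CSF, 9.12 and 9.13 in FSL-1, and 8.62 and 8.58 with nutlin-3a added. FSL-1 stood above the other groups, and the difference from M-CSF was 0.47 (1.39-fold, limma adjusted p = 0.0459), with 0.13 at a dimmer probe set. Vegfa, the vascular growth factor, had a mean difference of 0.01 with FSL-1 (SE 0.23, limma adjusted p = 0.986). Its replicates were far apart, at 8.26 and 7.77 in M-CSF and 7.71 and 8.35 in FSL-1. Ndrg1, a stress-response gene of uncertain biochemical role, read 9.85 and 9.89 in M-CSF and 10.29 and 10.33 in FSL-1, a difference of 0.44 that did not pass (limma adjusted p = 0.123). The remaining 4 targets, Bnip3 of mitophagy, Egln1 (the main oxygen-sensing hydroxylase), the peptide hormone Adm and the mitochondrial Higd1a, differed by 0.15 to 0.31 and did not pass.

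Leaving out 1 array shortened the list. Of the 12 higher calls, 5 and 7 were made when the first or the second M-CSF array was omitted, and 4 and 5 when the first or the second FSL-1 array was. The 5 enzymes became 0, 2, 0 and 0 in the same order, and the 3 HIF targets 2, 2, 1 and 2. The calls of Slc2a1, Pfkfb3, Slc16a3 and Ero1a held in each of those fits. Hk2, Aldoc, Pgk1, Pkm, Hif1a and Ak4 lost theirs in all 4 (limma adjusted p = 0.053 to 0.27), Pfkp and Pgam1 in the 3 other than that without M-CSF replicate 2 (up to 0.0829 and 0.146), and Egln3 without FSL-1 replicate 1 (0.0662). The calls of Pgk1, Pkm, Hif1a and Ak4 were also lost when the nutlin-3a arrays were not fitted, those of Pkm, Hif1a and Ak4 when arrays were centred, and those of Pgam1 and Hif1a when probe sets were averaged.

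With nutlin-3a added to FSL-1, 9 of 28 members passed as lower, where 4.12% of all genes did, and 0 of 28 passed as higher, where 2.38% did (limma). In either direction 6.5% of all genes passed. At an unadjusted p under 0.05, 2 were higher and 13 lower. The genes called lower were Pfkp, Pgk1 and Pgam1 of the enzymes, Slc2a1 of the transporters, Hif1a, and the HIF targets Ndrg1, Vegfa, Ero1a and Egln3. The median log2 difference of the members was -0.29 and that of all genes 0.02. Arrays did not overlap for 17 members that lay below FSL-1, against 23.7% of all genes, and for 2 that lay above, Pfkl and Pfkfb3, against 27.2%. This comparison and the first share the FSL-1 arrays, so an error in those arrays enters both with opposite sign.

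**Figure D3:**
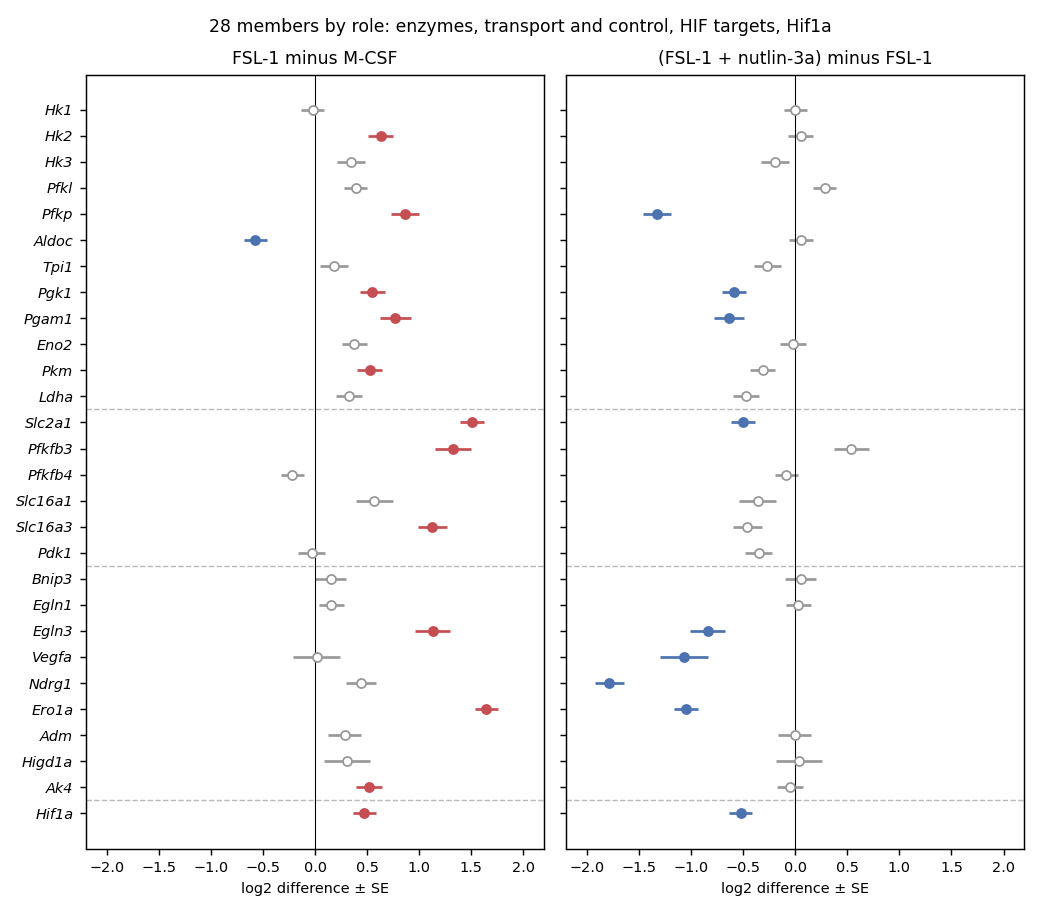
Log2 differences (horizontal) of each measured member (vertical), grouped by role, for FSL-1 minus M-CSF (left panel) and FSL-1 + nutlin-3a minus FSL-1 (right panel), with bars of 1 SE and filled markers where limma's adjusted p was under 0.05. Ndrg1 and Pfkp lie farthest to the left with nutlin-3a added, at -1.78 and -1.32, and Ero1a and Slc2a1 farthest to the right with FSL-1, at 1.64 and 1.51.

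The largest fall was that of Ndrg1 (probe set 17317652), which dropped from 10.29 and 10.33 in FSL-1 to 8.71 and 8.34 with nutlin-3a. Both values lay also below the M-CSF arrays. It was 3.44-fold lower (-1.78, SE 0.14, limma adjusted p = 0.000658), and a dim second probe set gave -0.85. Pfkp was 2.5-fold lower (-1.32, SE 0.13, limma adjusted p = 0.00173) and ended below both M-CSF arrays. Ero1a was 2.07-fold lower (-1.05, SE 0.11, limma adjusted p = 0.00215), with -0.83 at its second probe set, and stayed above M-CSF. These 3 calls held whichever array was left out.

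Vegfa read 6.98 and 6.95 with nutlin-3a, below all 4 arrays of the other groups. Against the widely spread FSL-1 arrays this was 2.09-fold lower (-1.07, SE 0.23, limma adjusted p = 0.0356). Egln3 fell by 0.84 (limma adjusted p = 0.0262) and Hif1a fell by 0.53 (limma adjusted p = 0.0343), both to near their M-CSF levels. Pgk1 fell by 0.59 (limma adjusted p = 0.0292) and Slc2a1 fell by 0.50 (limma adjusted p = 0.0451), the first to within the range of its M-CSF arrays and the second to a level between. Pgam1 fell by 0.64 on its brighter probe set (limma adjusted p = 0.0455), while the other probe set lay higher by 0.38 without passing, so the 2 probe sets disagree in direction.

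Several members did not pass but lay lower on both nutlin-3a arrays. Ldha read 6.62 and 6.84, against 7.18 and 7.21 in FSL-1 (-0.47, limma adjusted p = 0.0697). Slc16a3 differed by -0.46 (limma adjusted p = 0.108) and Pkm by -0.31 (limma adjusted p = 0.183). Pfkfb3 lay higher instead, at 7.86 and 8.35 against 7.51 and 7.63 (0.54, SE 0.17, limma adjusted p = 0.114), and Pfkl also (0.28, limma adjusted p = 0.192). Hk2, Aldoc and Ak4, which had changed with FSL-1, differed by 0.05, 0.05 and -0.05 when nutlin-3a was added.

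The enzymes and the HIF targets outside glycolysis were set side by side, since both hold known HIF targets. With nutlin-3a, 3 of 12 enzymes, 4 of 9 HIF targets and 1 of 6 transport and control genes passed as lower, beside 4.12% of all genes. The 3 enzymes include Pgam1, whose other probe set lay higher by 0.38 without passing. The median difference was -0.23 for the enzymes, -0.05 for the HIF targets and -0.35 for the transport and control genes. The HIF targets were uneven: Ndrg1, Vegfa, Ero1a and Egln3 lay between -1.78 and -0.84, and the other 5 between -0.05 and 0.05. The enzymes ran from -1.32 to 0.28. On the arrays, the median deviation of the enzymes from each gene's mean was -0.27 and -0.05 in M-CSF, 0.19 and 0.20 in FSL-1, and -0.11 and -0.04 with nutlin-3a added. The HIF targets gave -0.10 and -0.26, then 0.04 and 0.35, then -0.04 and -0.05. In both roles the FSL-1 arrays were the highest. The M-CSF replicates of the enzymes and the FSL-1 replicates of the HIF targets lay well apart from each other.

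**Figure D4:**
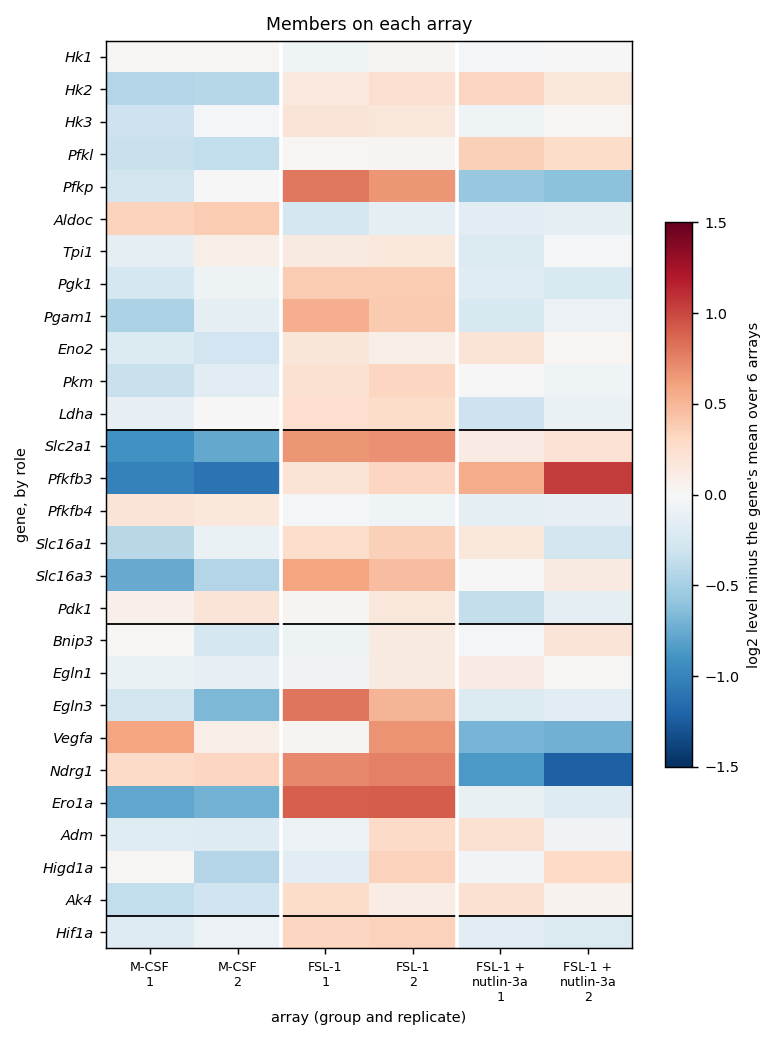
Deviation of each measured member (vertical, by role) from its own mean over the 6 arrays (horizontal), in log2 units by colour. By group mean, most members are highest in FSL-1. Hk1, Pfkfb4, Pdk1 and Aldoc are highest in M-CSF, and Hk2, Pfkl, Pfkfb3, Bnip3, Egln1 and Higd1a in FSL-1 + nutlin-3a.

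Without 1 of the compared arrays, 4 of the 9 lower calls were made when FSL-1 replicate 1 was omitted and 3 when any of the other 3 was. The enzymes then had 1 lower call each time and the HIF targets 2 or 3. Slc2a1, Pgk1, Pgam1, Egln3 and Hif1a lost their calls in all 4 fits (limma adjusted p = 0.072 to 0.231), and Vegfa in all but that without FSL-1 replicate 1 (up to 0.171). Pfkfb3 passed as higher when FSL-1 + nutlin-3a replicate 1 was omitted. The call of Slc2a1 was also lost without the M-CSF arrays, after centring, after a second quantile normalization and when its probe sets were averaged, and averaging ended the calls of Pgam1 and Hif1a too.

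Against M-CSF, the cultures with FSL-1 and nutlin-3a had 6 members higher, where 4.58% of all genes passed, and 3 lower, where 4.94% did (limma), with 9.51% of all genes passing in either direction. The median difference was 0.19 for the members and 0.02 for all genes, and 12 members lay wholly above M-CSF (27.3% of all genes) and 7 below (24.2%). This comparison shares arrays with both others. Pfkfb3 gave the largest rise, 3.63-fold (1.86, SE 0.17, limma adjusted p = 0.000466). Slc2a1 was 2.01-fold higher (1.01, limma adjusted p = 0.00148), and Slc16a3 was higher by 0.67 (limma adjusted p = 0.0245). In all, 3 of 6 transport and control genes passed as higher (median 0.44). Among the enzymes, with a median of 0.06, Hk2 was higher by 0.68 (limma adjusted p = 0.00998) and Pfkl by 0.67 (limma adjusted p = 0.00796). Ero1a was the 1 HIF target that passed as higher (0.59, limma adjusted p = 0.0145), where the median of that role was 0.28.

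The lower genes were Ndrg1, Vegfa and Aldoc. Ndrg1 was 2.54-fold lower than in M-CSF (-1.34, SE 0.14, limma adjusted p = 0.001) and Vegfa 2.07-fold (-1.05, SE 0.23, limma adjusted p = 0.0268). Their differences from M-CSF with FSL-1 alone were 0.44 and 0.01. Aldoc differed by -0.52 (limma adjusted p = 0.0268), and by -0.57 with FSL-1 alone. Pgk1 and Hif1a differed from M-CSF by -0.04 and -0.05 (limma adjusted p = 0.883 and 0.836). Omitting M-CSF replicate 1 left 3 of the 6 higher calls and omitting FSL-1 + nutlin-3a replicate 1 left 2, and the 3 lower calls became 1 when any compared array but M-CSF replicate 2 was omitted. Slc2a1, Pfkfb3 and Ndrg1 held in each of those fits. Ero1a and Aldoc lost their calls in all 4 (adjusted p up to 0.0814 and 0.106), Slc16a3 and Vegfa in all but that without M-CSF replicate 2 (up to 0.125 and 0.147), Hk2 without M-CSF replicate 1 or FSL-1 + nutlin-3a replicate 1 (up to 0.0617), and Pfkl without the latter (0.0504).

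A further 55 genes of the same pathways were measured, of 64 listed. They were other glycolytic and glucose genes, the pentose phosphate branch, genes of the oxygen-sensing pathway and other HIF targets. The oxygen-sensing list holds Epas1, Arnt, Arnt2, Hif3a, Hif1an, Vhl, Egln2 and Os9. The hydroxylases Egln1 and Egln3 are counted among the members above, where Egln3 was called higher with FSL-1. With FSL-1, 9 passed as higher (16.4%, against 3.91% of all genes) and 2 as lower (3.64%, against 2.95%), with a median difference of 0.04. By group these were 3 higher and 2 lower of 22 glycolysis and glucose genes and 1 higher of 5 pentose phosphate genes. Of the 8 genes in the oxygen-sensing list 0 passed, and of the 20 other HIF targets 5 passed as higher. The differences in the oxygen-sensing list ran from -0.44 to 0.20, with 0 higher and 2 lower at an unadjusted p under 0.05 (limma). Lox, the secreted enzyme that cross-links collagen and a HIF target in tumours, read 5.82 and 5.68 in M-CSF, 11.02 and 10.77 in FSL-1, and 9.67 and 9.16 with nutlin-3a added. It rose by 5.14 (limma adjusted p = 7.35e-06), more than any of the members, and its 3 groups lay far apart.

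The glucose transporters did not move together. Slc2a6, a transporter of the lysosomal membrane, read 7.98 and 8.01 in M-CSF, 8.78 and 8.93 in FSL-1, and 7.66 and 7.80 with nutlin-3a added. It rose by 0.86 with FSL-1 (limma adjusted p = 0.00587) and fell by 1.13 when nutlin-3a was added (limma adjusted p = 0.00217). Slc2a3, the transporter GLUT3, read 6.67 and 6.96, then 6.07 and 6.06, then 5.96 on both arrays, and fell by 0.75 with FSL-1 (limma adjusted p = 0.0142). Other HIF targets that rose with FSL-1 were the collagen prolyl hydroxylase P4ha2 (0.86, limma adjusted p = 0.00974), the transcriptional repressor Bhlhe40 (0.72, limma adjusted p = 0.0123), the transferrin receptor Tfrc (0.79, limma adjusted p = 0.0151) and the haem oxygenase Hmox1 (0.50, limma adjusted p = 0.037). Without 1 compared array the 9 higher calls became 1 to 4 (2, 4, 2 and 1 without M-CSF 1, M-CSF 2, FSL-1 1 and FSL-1 2). Slc2a6 lost its call without FSL-1 replicate 2, P4ha2 and Bhlhe40 in all but the fit without M-CSF replicate 2, Slc2a3 in all but that without M-CSF replicate 1, and Tfrc and Hmox1 in all 4 (adjusted p up to 0.117 and 0.192).

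When nutlin-3a was added, 2 of the 55 passed as higher (3.64%, against 2.38% of all genes) and 4 as lower (7.27%, against 4.12%), with a median of -0.03. These few calls lie near the shares of all genes. Lox fell by 1.48 (limma adjusted p = 0.00388) and stayed far above M-CSF. Anln, entered in the HIF list but best known as the scaffold protein of the cytokinetic ring, read 7.90 and 7.83 in FSL-1 and 5.36 and 5.00 with nutlin-3a, and fell by 2.68 (limma adjusted p = 0.000196). Pdhb, a subunit of pyruvate dehydrogenase, fell by 0.74 (limma adjusted p = 0.0245). Ddit4, an inhibitor of mTORC1 and a target of both HIF and p53, read 5.83 and 6.32 in FSL-1 and 7.04 and 7.11 with nutlin-3a, and rose by 1.00 (limma adjusted p = 0.0223). Car9, the carbonic anhydrase often used as a marker of hypoxia, rose by 0.83 on its brighter probe set (limma adjusted p = 0.0296), with 0.17 on the other. The calls of Ddit4, Pdhb and Car9 were each lost in 3 of the 4 fits without 1 compared array: for Ddit4 without all but FSL-1 replicate 2, for Pdhb without all but FSL-1 + nutlin-3a replicate 2, and for Car9 without all but FSL-1 + nutlin-3a replicate 1 (adjusted p up to 0.133, 0.161 and 0.172).

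Against M-CSF, 10 of the 55 passed as higher (18.2%, against 4.58% of all genes) and 5 as lower (9.09%, against 4.94%) in cultures with FSL-1 and nutlin-3a, with a median of 0.04. Lox was higher by 3.66 (limma adjusted p = 2.65e-05), Bhlhe40 by 0.86 (limma adjusted p = 0.00374), and Hmox1 by 0.78 (limma adjusted p = 0.00402). Tigar, a p53 target that breaks down the fructose bisphosphate which Pfkfb3 makes, read 6.80 and 6.95 in M-CSF, 7.41 and 7.46 in FSL-1, and 7.67 and 7.66 with nutlin-3a added. It was higher by 0.79 than in M-CSF (limma adjusted p = 0.00449). With FSL-1 alone it was already called higher, by 0.56 (limma adjusted p = 0.0276), though not under every alternative. Its step from FSL-1 to FSL-1 with nutlin-3a, 0.23, did not pass (limma adjusted p = 0.299). Anln was lower by 3.28 (limma adjusted p = 2.06e-05) and Slc2a3 by 0.86 (limma adjusted p = 0.00532). The higher calls became 6, 5, 5 and 6 without M-CSF 1, M-CSF 2, FSL-1 + nutlin-3a 1 and FSL-1 + nutlin-3a 2, and the lower calls 2, 3, 2 and 3, while the 6 genes named here kept theirs.

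Myc, a transcription factor known to raise glycolytic genes through the E-box, read 6.66 and 7.50 in M-CSF, 9.11 and 9.10 in FSL-1, and 7.27 and 7.66 with nutlin-3a added. Its FSL-1 arrays lay above all others, and its M-CSF replicates differed by more than any member's. Myc rose by 2.02 with FSL-1 (limma adjusted p = 0.00397) and fell by 1.64 when nutlin-3a was added (limma adjusted p = 0.0114). The fall missed the threshold without FSL-1 replicate 1, FSL-1 replicate 2 or FSL-1 + nutlin-3a replicate 1 (adjusted p up to 0.0808). Its part in the levels of the glycolytic genes was not tested.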

How the data were processed

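Sorted cells gave total RNA that was amplified, labelled with biotin and read on Affymetrix arrays, per the labels' protocols, with 2 arrays in each of 3 groups. The values used are log2 expression for each probe set, as deposited. The authors made them by RMA with Affymetrix Expression Console 1.4, according to the submitters' processing notes. RMA equalises the arrays by quantiles, so a change shared by most genes would not be seen. Background levels and detection are not given in the sources used here. Of 34390 probe sets, 23521 name 1 gene and were used, while 1814 name several and 9055 none. They gave 22180 genes, and for the 1082 with several probe sets that of the highest mean was taken.

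The fit was limma 3.58.1 (lmFit, eBayes; R 4.3.3) over the 6 arrays, with 3 residual and 4.88 prior degrees of freedom, and p-values were adjusted by Benjamini-Hochberg over every gene, with a threshold of 0.05. The labels name no separate cultures or animals behind the replicates. The p-values therefore measure only how far these samples spread, which may be technical. The script was tested on simulated data. Members, roles and the other lists were chosen with earlier results of these data known. The genes named are all members, up to 6 called genes of the other pathway lists with the smallest p per comparison, Mdm2 and Myc. Promoters came from RefSeq (GRCm38.p6). Figures were drawn with matplotlib 3.10.9. The alternatives were trend and robust moderation, another quantile normalization, centring of arrays, averaged probe sets, a filter on dim genes, a fit of the compared groups only, a replicate block, array weights, and omission of each array.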

Additional observations from a re-analysis of the deposited data

How the results depend on the processing

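No called member changed sign under any of the 15 alternatives per comparison that kept it. Ak4, called with FSL-1, had 14, since the filter on dim genes removed it. With FSL-1, 4 of 13 calls held in every alternative (Slc2a1, Pfkfb3, Slc16a3 and Ero1a), with nutlin-3a added 3 of 9 (Pfkp, Ndrg1 and Ero1a), and against M-CSF 3 of 9 (Slc2a1, Pfkfb3 and Ndrg1). With trend and robust moderation, all genes gave 1476 higher and 1268 lower calls with FSL-1, 1090 and 1568 with nutlin-3a added, and 1548 and 1789 for FSL-1 + nutlin-3a against M-CSF. With dim genes left out these were 1434 and 1269, 1035 and 1591, and 1526 and 1808. Under either setting 1 member passed as higher with nutlin-3a added, and without dim genes 6 members were lower than in M-CSF. Without 1 array, all genes gave 294 to 755 higher and 116 to 544 lower calls with FSL-1, 65 to 452 and 256 to 760 with nutlin-3a added, and 574 to 738 and 569 to 791 against M-CSF. The members gave 4 to 8 higher and 0 to 1 lower calls, 0 to 1 and 3 to 8, and 2 to 6 and 1 to 2. These ranges include fits without an array of the group not compared.

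The replicate numbers gave no sign of pairing: replicate differences correlated at -0.188 between M-CSF and FSL-1, 0.0175 between M-CSF and FSL-1 + nutlin-3a, and -0.0248 between the FSL-1 groups. Whether equal numbers share an animal or a culture is not stated, and these correlations cannot settle it. With the replicate number as a block, the nutlin-3a comparison gave 340 higher calls over all genes and 4 lower calls among members, and the FSL-1 comparison 8 higher calls among members. Crossing the M-CSF numbers in the block, chosen after seeing the data, gave 10 higher members with FSL-1, 6 lower with nutlin-3a added, and 6 higher and 3 lower against M-CSF.

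Differences near 0 that were not called changed sign. With FSL-1, Vegfa was -0.018 after centring and Pdk1 0.027 with averaged probe sets; without 1 array, Vegfa ran from -0.30 to 0.33, Pdk1 from -0.094 to 0.027 and Hk1 from -0.077 to 0.028. With nutlin-3a added, Eno2 was 0.035 after a second quantile normalization. Without 1 array, Eno2 ran from -0.11 to 0.068, Hk1 from -0.051 to 0.054, Hk2 from -0.028 to 0.13, Aldoc from -0.0035 to 0.11, Bnip3 from -0.055 to 0.16, Egln1 from -0.059 to 0.12, Higd1a from -0.22 to 0.30, Ak4 from -0.14 to 0.038 and Adm from -0.19 to 0.18. Against M-CSF, Hk1 was 0.029 after a second quantile normalization and Hif1a 0.048 with averaged probe sets, and without 1 array Pgam1 ran from -0.034 to 0.30, Tpi1 from -0.20 to 0.029, Pgk1 from -0.14 to 0.056 and Slc16a1 from -0.017 to 0.43. The causes were not tested. Where an array was left out, the lone array of its group was taken to vary as the other groups do. With 2 arrays per group and no background measure, small differences and dim probe sets such as those of Egln3, Ak4 and Adm are the least certain.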
